A study of Homo sapiens with 6 samples.

Results

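ACTA2, the gene of smooth muscle alpha actin, was examined together with 9 other genes that serum response factor (SRF) or YAP switches on: ACTG2, TAGLN, CNN1, MYL9, TPM1, VCL, CTGF, CYR61 and ANKRD1. The 10 genes were chosen by a measured value, the rise of ACTA2 with the DDX3X constructs against GFP alone, and the other 9 were added from their known place in the same programmes. They are 10 of the 23204 gene symbols in the tables, and they fill 21 of 39618 transcript rows. For a symbol with several rows, as held for 6 members, the row of highest mean RPKM was kept. RPKM divides the reads of a transcript by its length and by the depth of the library, which puts genes and libraries on one scale. It leaves uncorrected a shift in the make-up of a library, such as the larger share of reads that DDX3X took with the constructs. Rows of one symbol can also share reads, so a level depends on the row kept.

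SRF binds the CArG box. With its actin-regulated cofactors of the MRTF family it drives genes of the contractile apparatus and the actin cytoskeleton, and with ternary complex factors it drives immediate-early genes such as EGR1 and FOS. YAP and TAZ enter the nucleus when Hippo signalling is low and act through TEAD proteins, with CTGF, CYR61 and ANKRD1 as the usual reporters. In smooth muscle and myofibroblasts, ACTA2, TAGLN, CNN1 and MYL9 are expressed together at high levels.

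All 6 libraries came from HEK293T, a human embryonic kidney line that carries the SV40 large T antigen, although a cell type label reads "Neuronal". Each group had 1 RNA-seq library. The study asked how mutants of the DEAD-box RNA helicase DDX3X found in medulloblastoma affect stress granules and translation. From its RNA-seq it reported that neither depletion nor over-expression of DDX3X significantly changed RNA levels, for RNAs that DDX3X binds or for others. In the siRNA arm, cells were harvested 48 h after a control pool or DDX3X siRNA (2 libraries). In the plasmid arm (4 libraries), cells received 5 µg of plasmid that encoded GFP alone or GFP fused to DDX3X, which was wild type or carried T275M or G302V, and GFP-positive cells were sorted after 32 h. One description of the RNA-seq in the study names another mutation in place of T275M, and the labels were followed here. The constructs added a tagged protein to cells that kept their own DDX3X gene. The recovered depth ran from 43720000 reads (G302V) to 180870000 reads (DDX3X siRNA). DDX3X itself stood at 119 RPKM with GFP and 1906 to 3279 RPKM with the constructs, and at 107 RPKM with the control pool and 31.3 RPKM with its siRNA.

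The sequences around the start sites are shown first, because the motifs that SRF and TEAD proteins are known to read were sought there. The sequences are RefSeq promoter windows (GRCh38.p14, from 250 bases before to 50 after a start site), cut to the stretch with the motifs and printed in the direction of transcription. Capitals mark a CArG box (CC, 6 letters of A or T, GG), a CArG-like box with 1 of those 6 letters C or G, or the TEAD motif GGAATG, which was sought on both strands. CArG and CArG-like boxes read as such on both strands, and none of the marked motifs overlapped another.
ACTA2, chr10:88952825-88952966, minus strand: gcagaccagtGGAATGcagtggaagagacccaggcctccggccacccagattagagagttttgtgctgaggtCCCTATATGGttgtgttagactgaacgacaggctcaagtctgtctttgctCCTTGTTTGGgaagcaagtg
ACTG2, chr2:73892888-73892954, plus strand: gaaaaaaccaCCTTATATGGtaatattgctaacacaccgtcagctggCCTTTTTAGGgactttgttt
CTGF, chr6:131951452-131951551, minus strand: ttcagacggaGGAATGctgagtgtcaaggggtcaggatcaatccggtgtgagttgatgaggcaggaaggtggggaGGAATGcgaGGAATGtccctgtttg
ANKRD1, chr10:90921200-90921317, minus strand: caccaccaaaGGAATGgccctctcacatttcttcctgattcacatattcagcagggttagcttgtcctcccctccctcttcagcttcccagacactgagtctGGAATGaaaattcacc
VCL, chr10:73997935-73997960, plus strand: ccctcccttaGGAATGggggaggggc
EGR1, an SRF target through ternary complex factors, chr5:138465364-138465415, plus strand: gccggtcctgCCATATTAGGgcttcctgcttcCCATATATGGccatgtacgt

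Of the 10 members, 7 were matched to 8 promoter windows, and the others were TAGLN, MYL9 and CYR61. The proximal ACTA2 start had CArG-like boxes 121 and 71 bases upstream and a TEAD motif 183 bases upstream. A CArG box stood in 1 of the 8 windows (ACTG2, at 110 and 73 bases), a CArG-like box in 1 (ACTA2), and GGAATG in 4 (ACTA2, VCL, CTGF and ANKRD1). Over all 35116 promoter windows of 300 bases, a CArG box was found in 1.29%, a CArG-like box in 6.94% and GGAATG in 14.0%. The CArG-like search was added after the ACTA2 sequence had been read. The windows of CNN1 and TPM1 and of a second, distal ACTA2 start held none of these letters, which says nothing about binding elsewhere.

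ACTA2 lies on chr10:90694831-90751096 (GRCh37, as for all gene positions below, minus strand). Its level in the plasmid arm was 1.59 RPKM in the GFP library, 10.2 RPKM in the T275M library, 7.10 RPKM in the wild-type library and 4.55 RPKM in the G302V library. In the siRNA arm it was 1.60 RPKM with the control pool and 2.43 RPKM with DDX3X siRNA. The level was therefore lowest in both control libraries, which came from separate arms, and the order T275M, wild type, G302V was also the order of the DDX3X level in those libraries. These levels rest on 122, 680, 623 and 278 reads in the plasmid arm, in that order, and on 151 and 615 in the siRNA arm. The 95% counting intervals of the control levels, 1.32 to 1.90 RPKM and 1.35 to 1.87 RPKM, overlapped. No other pair of neighbours in the order of levels had overlapping intervals, although counting error leaves out the spread between cultures. In bulk RNA, a change in the number of cells that express a gene and a change in RNA per cell cannot be told apart.

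**Figure D1:**
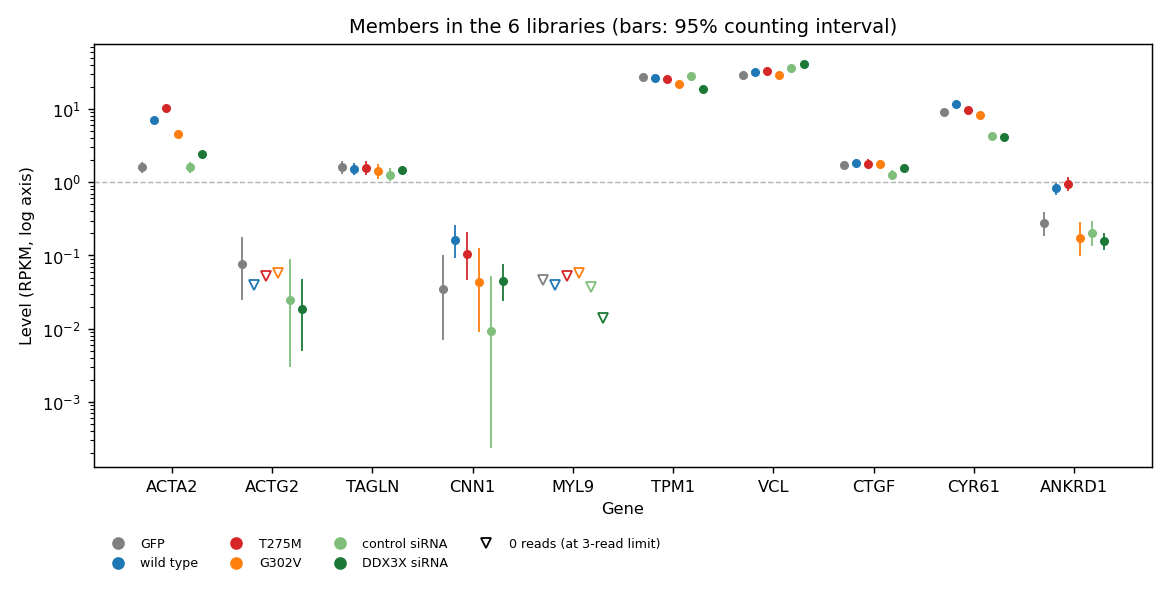
Level of each member in RPKM on a log axis, 1 point per library with its 95% counting interval; open triangles mark libraries with 0 reads, drawn at the level that 3 reads would give, and the dashed line is 1 RPKM. ACTA2 spans 1.59 to 10.2 RPKM over the libraries, TAGLN, CTGF, TPM1 and VCL lie close together across them, and MYL9 is at 0 reads in all 6.

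The comparisons of each construct with GFP share the GFP library, and for ACTA2 they are the contrast by which the genes were chosen, so its values are a description. As log2 ratios of RPKM + 1, ACTA2 stood at 2.12 with T275M (95% counting interval 1.93 to 2.30), 1.64 for the wild-type construct (1.45 to 1.83) and 1.10 for G302V (0.88 to 1.31). The ratios of the RPKM values themselves, with no constant added, were 6.43, 4.46 and 2.86.

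The question was whether this rise was shared, and no other member that passed a filter on low values reached 2-fold, while ANKRD1, which lay below that filter, had higher levels with 2 of the 3 constructs. A gene was counted where 1 of the 2 libraries had at least 1 RPKM and at least 10 reads, and it was called higher or lower at a 2-fold ratio of RPKM + 1. Of the 10 members, 6 passed this filter in every comparison: ACTA2, TAGLN, TPM1, VCL, CTGF and CYR61. The others, ACTG2, CNN1, MYL9 and ANKRD1, passed it in none. With wild type, 1 of the 6 was called higher and 0 lower, against 0.232% and 0.0155% of all genes that passed. With T275M the counts were again 1 and 0, against 0.294% and 0.0774%, and with G302V 1 and 0, against 0.0861% and 0.219%. ACTA2 was the gene called each time, and nothing is read from that count. The 5 others that passed ranged on the log2 scale from -0.06 to 0.34 with wild type. With T275M they ranged from -0.09 to 0.19, and with G302V from -0.29 to 0.02. The medians of all genes were 0.05, 0.07 and 0.03. At a 1.5-fold ratio 1.97%, 2.25% and 1.00% of all genes were higher in these 3 comparisons, and ACTA2 was still the member past it.

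**Figure D2:**
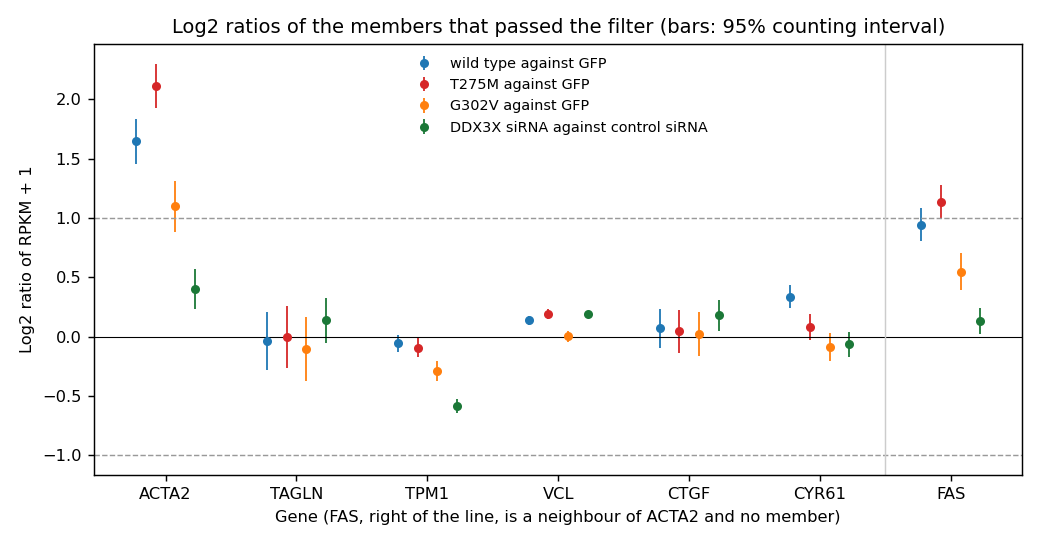
Log2 ratio of RPKM + 1 for the 6 members that passed the filter and for FAS, with 95% counting intervals; dashed lines mark a 2-fold ratio in either direction. ACTA2 lies above the upper line against GFP with each of the 3 constructs, at 1.64, 2.12 and 1.10, and the other members lie between -0.58 and 0.34.

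Among the contractile genes, TAGLN (chr11:117070086-117078180, plus strand), which encodes the actin-binding protein transgelin, had the same level as ACTA2 with GFP and kept near it. It was at 1.59 RPKM with GFP, 1.53 with wild type, 1.58 in the T275M library and 1.40 in the G302V library, and 1.26 and 1.49 RPKM with the control pool and DDX3X siRNA. The log2 ratios to GFP were -0.04 (-0.28 to 0.21), -0.01 (-0.27 to 0.26) and -0.11 (-0.38 to 0.16). Counting precision was alike for both genes, at 101 reads for TAGLN and 122 for ACTA2 in the GFP library.

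The other genes typical of smooth muscle were at the limit of detection. CNN1 (chr19:11649582-11661138, plus strand), the gene of calponin, an inhibitor of actomyosin, had 3, 16, 8 and 3 reads with GFP, wild type, T275M and G302V, and 1 and 13 reads in the siRNA arm. Its highest level was 0.161 RPKM, with wild type, where the RPKM ratio to GFP was 4.66 with a counting interval of 1.33 to 25.0. With T275M that ratio was 3.08 and its interval, 0.738 to 18.0, included 1. ACTG2 (chr2:74119441-74146992, plus strand), the gene of enteric gamma actin, had 5 reads with GFP and 0 in each construct library, and 2 and 4 reads with the control pool and DDX3X siRNA. MYL9 (chr20:35169900-35179850, plus strand), a regulatory light chain of myosin, was listed at 0 in all 6 libraries. At 3 reads, taken here as the limit that a count of 0 allows, the MYL9 level would be 0.0139 RPKM in the deepest library and 0.0573 RPKM in the shallowest.

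TPM1 and VCL, which nonmuscle cells use as well, were expressed at higher levels. TPM1 (chr15:63334819-63364114, plus strand) encodes tropomyosin, which lies along actin filaments. It stood at 27.4 RPKM with GFP, 26.3 with wild type, 25.6 in the T275M library and 22.2 in the G302V library, so the construct libraries were all below GFP. With G302V the log2 ratio was -0.29 (-0.38 to -0.21). VCL (chr10:75754951-75881121, plus strand) encodes vinculin, which ties actin to adhesions. It was at 29.1 RPKM with GFP, 32.0 with wild type, 33.4 in the T275M library and 29.1 in the G302V library. Its largest log2 ratio to GFP was 0.19 (0.15 to 0.24), with T275M, which is inside the central 95% of all genes there (-0.35 to 0.56).

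Of the 3 YAP reporters, CTGF and CYR61 passed the filter, and neither was called with a construct. CTGF (CCN2, chr6:132269316-132272512, minus strand), a secreted matricellular protein, had 1.71 RPKM with GFP, 1.84 with wild type, 1.80 in the T275M library and 1.75 in the G302V library, and each counting interval of its log2 ratios to GFP included 0. CYR61 (CCN1, chr1:86046444-86050272, plus strand), of the same family, had 8.98, 11.6, 9.53 and 8.37 RPKM in that order. Its log2 ratio with wild type was 0.34 (0.24 to 0.44), inside the central 95% of all genes (-0.27 to 0.54).

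ANKRD1 (chr10:92671853-92680844, minus strand), a nuclear and sarcomeric ankyrin-repeat protein, stayed below the minimum of 1 RPKM in every library, but its levels with wild type and T275M were well above those with GFP. It had 0.277 RPKM (30 reads) with GFP, 0.832 RPKM (103 reads) with wild type, and 0.948 RPKM (89 reads) and 0.174 RPKM (15 reads) with T275M and G302V. The RPKM ratio to GFP was 3.42 (2.24 to 5.36) with T275M, 3.0 (1.98 to 4.67) for wild type and 0.627 (0.314 to 1.20) for G302V. Both higher values therefore had counting intervals above 1, while the G302V interval included 1, unlike that of ACTA2 (2.30 to 3.57). In the siRNA arm ANKRD1 was at 0.203 and 0.157 RPKM.

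The siRNA comparison was not used in choosing the genes. With DDX3X siRNA against the control pool, 0 of 6 members were called in either direction, beside 0.0473% of all genes higher and 0.0630% lower. ACTA2 had the highest log2 ratio of the 6, 0.40 (0.23 to 0.57), a value inside the central 95% of all genes (-0.45 to 0.46). That range is of RPKM + 1, and the added constant draws ratios at low levels toward no difference. With no constant added the ACTA2 RPKM ratio was 1.52 (1.27 to 1.83), and with a pseudocount of 0.1 its log2 ratio was 0.58. No range of all genes was taken on those scales. The arms differ in transfection, time and sorting, so the ratios of the siRNA arm and the plasmid arm were not compared. TPM1 was the lowest member, at 28.4 RPKM with the control pool and 18.6 RPKM with DDX3X siRNA, a log2 ratio of -0.58 (-0.64 to -0.52), outside that central range and short of 2-fold. VCL was at 36.4 and 41.6 RPKM (0.19, 0.16 to 0.22), CTGF at 1.27 and 1.57 RPKM (0.18, 0.04 to 0.31), and CYR61 at 4.32 and 4.08 RPKM (-0.07, -0.17 to 0.04). The TAGLN ratio, 0.14 (-0.06 to 0.32), included 0 in its interval.

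Between the constructs, ACTA2 had the widest spread of the 6 members that passed. T275M against wild type gave a log2 ratio of 0.47 (0.33 to 0.61) and G302V against wild type -0.55 (-0.72 to -0.37). In neither comparison was any of the 6 members called, against 0.0154% of all genes higher and 0.0617% lower in the former and 0.00771% and 0.177% in the latter. G302V against T275M gave -1.02 (-1.19 to -0.84), and ACTA2 was the 1 member called lower there, with 0 higher (0.139% and 0.0387% of all genes). That call sits at the threshold, and it was lost with median-ratio scaling and with the longer ACTA2 row. The DDX3X level in the G302V library was below those of T275M and wild type, at a log2 ratio of -0.78 and -0.60. Its part in the ACTA2 differences was not tested. For the 5 other members that passed, G302V against T275M ranged from -0.20 to -0.02. ANKRD1, below the filter and at 15 reads with G302V, differed more than ACTA2 as a ratio of RPKM values with no constant added. Its ratio was 0.183 (0.0985 to 0.319) for G302V against T275M and 0.209 (0.113 to 0.361) for G302V against wild type. The ACTA2 ratios on that scale were 0.445 and 0.640.

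GFP alone against the control pool sets both control libraries side by side. ACTA2 was at -0.00 (-0.22 to 0.21). No member was called, beside 0.432% of all genes higher and 0.0707% lower. CYR61 came closest, at 8.98 against 4.32 RPKM, a log2 ratio of 0.91 (0.79 to 1.02) and an RPKM ratio of 2.08 (1.89 to 2.29). At a 1.5-fold ratio CYR61 was the 1 member called, beside 1.22% of all genes. Thus the CYR61 difference between the arms was larger than any CYR61 difference within an arm, and the treatments and sorting that set the arms apart cannot be told apart.

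The neighbours of ACTA2 on chromosome 10 were read next, since FAS starts head to head with it. FAS encodes a death receptor and is a p53 target. The FAS gene (chr10:90750414-90775542, plus strand) overlaps the annotated ACTA2 gene by 683 bases, from 90750414 to 90751096. The stretch between the distal ACTA2 start and the nearest FAS start in RefSeq (GRCh38.p14, plus strand) is shown because both genes begin at its ends, and it held none of the motifs searched.
Between ACTA2 and FAS, chr10:88991338-88991430: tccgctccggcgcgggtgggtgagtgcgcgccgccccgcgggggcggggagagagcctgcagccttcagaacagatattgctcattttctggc

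FAS followed the order of ACTA2 at smaller ratios. It stood at 1.97 RPKM with GFP, 5.51 with T275M, 4.70 for wild type and 3.33 for G302V, and at 2.54 and 2.88 RPKM with the control pool and DDX3X siRNA. For T275M, wild type and G302V the log2 ratios to GFP were 1.13 (0.99 to 1.28), 0.94 (0.80 to 1.08) and 0.55 (0.39 to 0.70), and the T275M value alone passed 2-fold on that scale. The RPKM ratios with no constant added were 2.80 (2.44 to 3.23), 2.39 (2.09 to 2.74) and 1.70 (1.45 to 1.98), and with a pseudocount of 0.1 the wild-type value passed as well. With DDX3X siRNA the log2 ratio was 0.13 (0.02 to 0.24). STAMBPL1 (chr10:90639491-90734910, plus strand), a deubiquitinase gene whose span overlaps ACTA2 on the opposite strand, stayed between 4.62 and 5.20 RPKM in the plasmid arm. LIPA, a lysosomal lipase gene nearby, ran from 25.5 to 27.5 RPKM there, and CH25H was at most 0.0397 RPKM in any library.

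**Figure D3:**
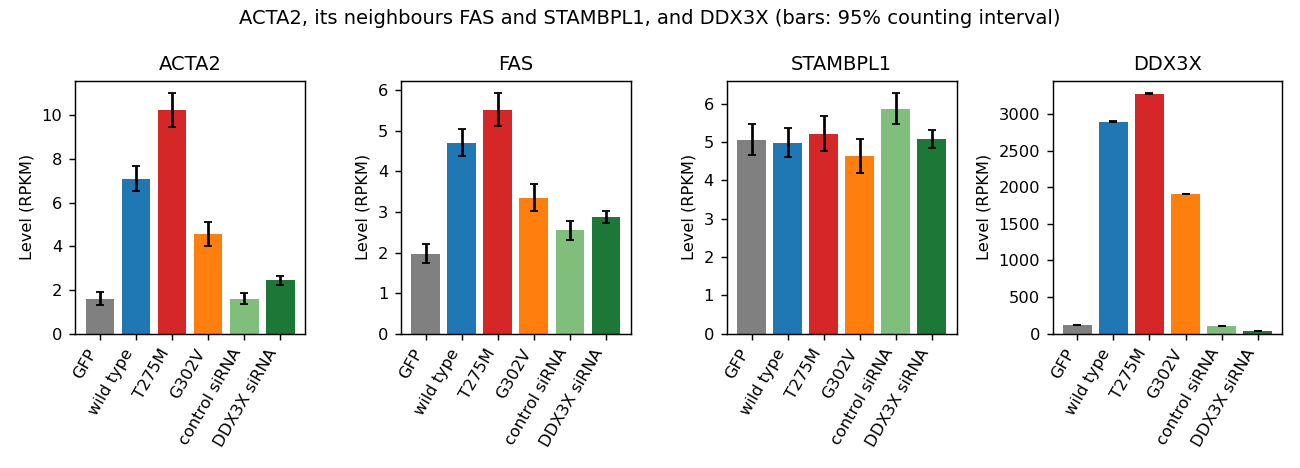
Levels in RPKM of ACTA2, its neighbours FAS and STAMBPL1, and DDX3X in the 6 libraries, 1 bar per library from 0, with 95% counting intervals. ACTA2 and FAS are highest with T275M (10.2 and 5.51 RPKM), then wild type, then G302V, as is DDX3X, and STAMBPL1 stays between 4.62 and 5.86 RPKM.

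Reads can be shared where the genes overlap. In GENCODE release 44 the ACTA2 transcript from the proximal start (9 exons, 1349 bases) shares 0 exonic bases with FAS and with STAMBPL1. The first exons of the transcripts from the distal start share 311 and 380 bases with FAS exons. The table has a shorter ACTA2 row of 1399 bases (NM_001613), used here, and a longer row of 1758 bases (NM_001141945). By length, the former resembles the proximal and the latter the distal transcripts, but the tables do not give exons. The reads of the longer row exceeded those of the shorter one by 25, 86, 90 and 48 in the plasmid arm and by 37 and 122 in the siRNA arm. Scaled to the depth of each library, this excess was 3.01, 4.15 and 2.41 times the GFP value with wild type, T275M and G302V. The longer row had 147, 709, 770 and 326 reads in the plasmid arm and 188 and 737 in the siRNA arm. The excess was thus the smaller part of its reads, though not a negligible one. The proximal transcript also shares 516 bases with the antisense gene ACTA2-AS1, which was not analysed here, and the library kit does not mark strand, so reads of either strand cannot be told apart.

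The other actins had other patterns. Cytoplasmic actins dominated, with ACTB at 1268, 1224, 1076 and 1107 RPKM with GFP, wild type, T275M and G302V. ACTG1 ran from 1246 to 1351 RPKM in the same libraries. ACTA2 came to 0.125% of the ACTB level with GFP and 0.950% with T275M. The skeletal muscle actin ACTA1 was between 0.352 and 0.748 RPKM over all libraries, lowest with T275M, and the cardiac actin ACTC1 was at most 0.0259 RPKM.

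A wider list of 33 other SRF and MRTF cytoskeletal targets was read in the same way. With wild type 28 passed the filter, and with T275M, G302V and DDX3X siRNA 27 did. None was called in either direction in any of the 8 comparisons, where 0.00771% to 0.432% of all genes were called per direction. A list of this size would hold few calls at that share, so nothing is read from the count. The list medians on the log2 scale were 0.00, 0.06 and 0.03 against GFP and -0.11 with DDX3X siRNA, beside all-gene medians of 0.05, 0.07, 0.03 and -0.02. With median-ratio scaling the wild type and T275M medians turned to -0.06 and -0.01. LMOD1, the leiomodin gene of smooth muscle, was the highest with wild type and T275M, at 1.46, 2.75 and 2.59 RPKM with GFP, wild type and T275M (log2 ratios 0.61 and 0.55). FLNC, a filamin gene, was the highest with G302V, at 18.9 RPKM against 11.5 RPKM with GFP (0.67). The lowest were the nonmuscle myosin gene MYH9 with wild type (-0.29), TAGLN2 with T275M (-0.24) and TPM2 with G302V (-0.34). With DDX3X siRNA the ends were MYH9 (0.44) and the calponin gene CNN2 (-0.60).

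Of 19 further YAP and TEAD targets, 12 passed the filter. GADD45A, a growth arrest gene, was called higher with T275M (1.41) and wild type (1.23), where 0.294% and 0.232% of all genes were, and stood at 0.80 with G302V, where FJX1 was the lowest (-0.12). Its levels were 13.1, 32.1, 36.4 and 23.5 RPKM with GFP, wild type, T275M and G302V, and 9.92 and 10.1 RPKM in the siRNA arm. GADD45A is a p53 target as well and was also on the p53 list. The list medians were 0.14, 0.26 and 0.22 against GFP with wild type, T275M and G302V, beside all-gene medians of 0.05, 0.07 and 0.03. In that order 10, 11 and 11 of the 12 were above 0. With median-ratio scaling 9, 11 and 11 were, and the list medians were 0.09, 0.21 and 0.21. AMOTL2, a Hippo pathway scaffold and YAP target, came next with wild type and T275M at 0.62 and 0.61, from 3.50 RPKM with GFP to 5.90 and 5.86 RPKM. With DDX3X siRNA none of the 12 was called, beside 0.0473% of all genes higher and 0.0630% lower. The median there was 0.09, and the ends were CRIM1 (0.60) and CCDC80 (-0.42).

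Regulators of the SRF and YAP pathways were read in the same way. Of 28 genes for transcription factors, cofactors, Hippo kinases and other upstream proteins, 27 passed and none was called in any of the 8 comparisons. The share of all genes called was 0.00771% to 0.432% per direction, so nothing is read from that count. SRF itself was at 19.9, 21.5, 21.4 and 21.2 RPKM with GFP, wild type, T275M and G302V, and YAP1 at 16.1, 17.5, 19.1 and 20.2 RPKM. MYOCD, the cofactor of SRF in smooth muscle and heart, was at most 0.0164 RPKM. The small GTPase gene RHOB was the highest of the list against GFP in the 3 comparisons (0.38, 0.71 and 0.43). The lowest were the formin gene DIAPH1 with wild type (-0.33) and T275M (-0.30), and TEAD4 with G302V (-0.17). Against GFP 20 of the 27 were above 0 with wild type and 23 with each mutant, and the list medians were 0.11, 0.21 and 0.18. The all-gene medians were above 0 as well, at 0.05, 0.07 and 0.03. With median-ratio scaling 17, 20 and 23 were above 0 with wild type, T275M and G302V. With DDX3X siRNA, the kinase gene LIMK1 went from 16.3 to 30.1 RPKM (0.84) and RHOB from 31.4 to 56.6 RPKM (0.83), while the kinase gene ROCK1 was lowest (-0.22) and the median was 0.10.

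Ternary complex factor targets, the other branch of SRF, had another order over the libraries. With G302V, 3 of the 7 that passed were called lower than GFP: EGR1 (-1.29), FOS (-1.24) and FOSB (-1.10). Of all genes 0.219% were called lower there, and with a pseudocount of 10 the count fell to 1 of 7. EGR1, whose CArG boxes are printed above, was at 58.9 RPKM with GFP, 55.2 with wild type, 48.6 in the T275M library and 23.6 in the G302V library. None of the 7 was called with wild type or T275M, where FOSB was the lowest at -0.57 and -0.77 and JUNB (0.44) and IER3 (0.31) the highest. The whole plasmid arm stood high in these genes. EGR1 was at 0.557 RPKM with the control pool, and GFP against the control pool had 4 of 7 called higher, EGR1, FOS, FOSB and IER2, beside 0.432% of all genes. With a pseudocount of 10 that count was 2. The transfection, time and sort behind that gap cannot be told apart.

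**Figure D4:**
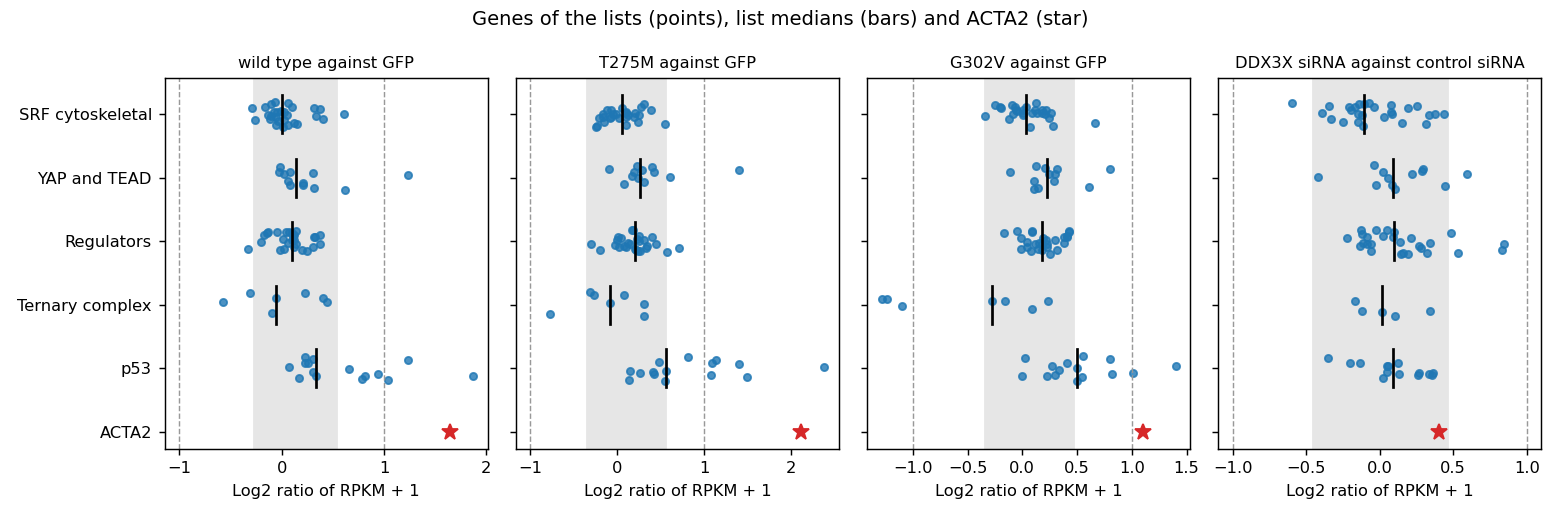
Log2 ratio of RPKM + 1 for the genes of 5 lists that passed the filter (points), list medians (black bars) and ACTA2 (star) in 4 comparisons; grey bands hold the central 95% of all genes and dashed lines mark a 2-fold ratio. No point of the SRF cytoskeletal list reaches the dashed lines, while 3 ternary complex points lie below -1 with G302V and p53 points lie above 1 with all 3 constructs. Of all genes, 0.0155% to 0.294% reach a dashed line per direction in these comparisons.

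FAS and GADD45A also belong to a list of p53 targets. Of its 15 genes, 6 were called higher with T275M, 3 with wild type and 2 with G302V, against 0.294%, 0.232% and 0.0861% of all genes. The list medians were 0.56, 0.33 and 0.50 in that order, beside all-gene medians of 0.07, 0.05 and 0.03. The activity of p53 itself was not tested. CDKN1A and GDF15 were called with all 3 constructs, GADD45A with T275M and wild type, and FAS, BTG2 and PHLDA3 with T275M. GDF15 was at 0.213 RPKM with GFP and at 3.44, 5.35 and 1.45 RPKM with wild type, T275M and G302V. It passed the filter through the construct libraries alone, so only a rise could be called for it against GFP. With a pseudocount of 10 the counts fell to 1, 0 and 0. With DDX3X siRNA none of 14 was called, beside 0.0473% of all genes higher and 0.0630% lower. The list median was 0.09 there and the all-gene median -0.02.

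Genes with the pattern most like that of ACTA2 were ranked by Pearson r of log2(RPKM + 1) over the 6 libraries, among 374 genes that passed the filter in a library and spanned at least 1 on that scale. The first 8 were SPATA18 (0.994), DUSP8 (0.988), GDF15 (0.987), PVT1 (0.987), SH2D3C (0.984), BTG2 (0.979), LIF (0.978) and FAS (0.973). CYR61 had r = 0.655 and DDX3X 0.882, at ranks 136 and 49. SPATA18, GDF15, SH2D3C and LIF were below 1 RPKM in both control libraries and passed the filter through the construct libraries alone. ACTA2 was chosen for its rise with the constructs and the compared genes for their span, so high values of r were partly built in. The 6 points share 2 control libraries and 1 sorted arm, so these values are a description.

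Markers were checked for the cell types that express ACTA2. Of 10 smooth muscle and myofibroblast markers, 5 reached 1 RPKM in a library, and DES, PDGFRB, COL1A2, POSTN and LUM did not. Their summed level was 18.5, 24.1, 22.1 and 19.4 RPKM with GFP, wild type, T275M and G302V, and 17.4 and 11.8 RPKM with the control pool and DDX3X siRNA, so it was highest with wild type, not T275M. MYH11, the smooth muscle myosin, lay between 0.718 and 1.05 RPKM. With wild type, T275M, G302V and DDX3X siRNA 5, 4, 3 and 3 of the 10 passed the filter. None of these was called, beside at most 0.294% of all genes in either direction. Among those that passed the filter, LMOD1 was the highest and the collagen gene COL1A1 the lowest with each construct (0.10, 0.11 and -0.06 for COL1A1), and COL1A1 was also the lowest with DDX3X siRNA (-0.87). Of 9 neuron markers 6 reached 1 RPKM while RBFOX3, MAP2 and STMN2 did not, and of 7 kidney epithelium markers 4 did. Of 7 skeletal and cardiac muscle markers, 2 reached it.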

How the data were processed

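RNA-seq libraries (TruSeq RNA v2, HiSeq 2000) were made from HEK293T cells, 1 library per group. The authors trimmed reads with cutadapt, aligned them with BWA 0.5.5 to hg19, RefSeq and junction sequences, removed duplicates, and deposited RPKM values per RefSeq transcript (their methods call the unit FPKM). The deposited tables hold no raw reads per gene. Reads were recovered from RPKM, transcript length and the step of low values, and 100% of the low rows checked were within 0.1 of a whole number. Log2 ratios are differences of log2(RPKM + 1), with 95% exact (Clopper-Pearson) counting intervals from these reads and exact Poisson intervals for levels. They cover counting error only, and with 1 library per group no p-value was given. Python 3.11.15, numpy 2.4.6, pandas 2.3.3 and scipy 1.17.1 were used, and the scripts were tested on simulated data.

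The members and lists were chosen with earlier results of these data known. The text names every member, the genes at the ACTA2 locus, the actins, and, from each list of targets and regulators and the smooth muscle and neuron markers, the genes past 2-fold or, where there were none, the highest and lowest against GFP. With DDX3X siRNA these are given for the SRF cytoskeletal, YAP, regulator and TGF-beta lists. A few further genes (AMOTL2, SRF, YAP1, MYOCD, MYH11) were named after their values had been seen. The labels name the mutants T275M and G302V and were followed, although a legend in the study names another mutation beside G302V. Gene positions are from GENCODE 44 lifted to GRCh37. Alternatives were the pseudocount, filter, scaling, CPM, transcript row and fold threshold.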

Additional observations from a re-analysis of the deposited data

How the results depend on the processing

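Of 272 alternative log2 ratios of single members, 247 moved by less than their counting interval and 25 by more, and none that had been called changed sign. Signs changed for 6 small ratios, 3 with median-ratio scaling, 2 with the row of second highest RPKM and 1 with summed rows. The number of members past 2-fold fell from 1 to 0 with a pseudocount of 10 for wild type, T275M and G302V against GFP and for G302V against T275M. It fell to 0 with a filter of 10 RPKM for wild type and G302V against GFP. For G302V against T275M it was also 0 with median-ratio scaling and with the second row, and 2 with CPM (ACTA2 and ANKRD1 lower). For GFP against the control pool it was 1 (CYR61) with a pseudocount of 0.1 and with the 1.5-fold threshold. These follow from the settings' own construction where a constant is added to low values. The other causes were not tested. ACTA2 against GFP was 2.09, 2.61 and 1.46 on the log2 scale with a pseudocount of 0.1, and 0.56, 0.80 and 0.33 with 10, for wild type, T275M and G302V.

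No paired analysis was possible because each group holds 1 library. For the same reason no library was left out. Culture-to-culture spread is unknown. ACTG2 had at most 5 reads in any library and MYL9 had 0, so both missed the minimum of reads as well as that of 1 RPKM. CNN1 passed the minimum of 10 reads with wild type (16 reads) and DDX3X siRNA (13 reads). ANKRD1 had 15 reads or more in every library. In those libraries CNN1 and ANKRD1 were left out by the minimum of 1 RPKM.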

Other observations

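Transforming growth factor beta also drives ACTA2 in myofibroblasts, so 10 of its common targets were read as well. Of these, 7 passed the filter, and none was called in any of the 8 comparisons. The share of all genes called there was 0.00771% to 0.432% per direction, so nothing is read from that count. The medians on the log2 scale against GFP were 0.32 with T275M, 0.23 for wild type and 0.10 for G302V, and -0.08 with DDX3X siRNA. All-gene medians were 0.07, 0.05, 0.03 and -0.02 in that order. With median-ratio scaling the list medians were 0.26, 0.17, 0.08 and -0.04. The highest were SKIL with T275M (0.37), CDKN2B with wild type (0.29) and SMAD7 with G302V (0.20), an inhibitor of the pathway. The lowest were ID1 with wild type (-0.05) and T275M (-0.03) and ID3 with G302V (-0.12), and with DDX3X siRNA the ends were PMEPA1 (0.26) and ID3 (-0.33).

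The 9 neuron markers did not move one way. Their summed level, mostly NEFM and NEFL, was 836 RPKM with GFP and lower with each construct, at 669 RPKM for T275M, 639 RPKM for wild type and 768 RPKM for G302V. SNAP25 was the 1 of 6 called higher with wild type, at a log2 ratio of 1.09 to GFP (0.232% of all genes), and NEFM was the lowest at -0.41. With T275M the ends were SNAP25 (0.99) and NEFM (-0.37), and with G302V, where SNAP25 did not pass the filter, SYP (0.82) and NEFM (-0.16). SNAP25 thus passed against GFP through the wild-type and T275M libraries alone, so only a rise could be called for it there.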
